A study of Mus musculus with 96 samples.

Results

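The genes described are a list of 32 that make and store fat in the liver: enzymes of fatty acid synthesis, desaturation and elongation, enzymes that assemble triglyceride, lipid droplet proteins, regulators of lipolysis and transcription factors of the pathway. They were listed by name and by no rule on measured values, though earlier results of these data were known when genes were chosen. All 32 were measured among the 18193 genes of the array table. Where a gene has several probe sets, the brightest on average was read, whatever the group.

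Liver RNA of CD-1 mice, an outbred stock, was measured on 96 expression arrays, 1 per sample. Both sexes were given PB by diet at 150, 75, 15, 1.5, 0.15 or 0 mg/kg-day and were sampled at day 2 or day 7, which gives 24 groups of 4 arrays. The controls are the dose 0 groups of the same sex and day. The labels name no genotype, transgene or age, give PB as letters only (commonly phenobarbital, an activator of the nuclear receptor CAR), and write ppm after the dose numbers to which the design text gives mg/kg-day, the unit used here. They do not state that each array is a separate mouse, so every p-value measures the spread between these samples, which may in part be technical.

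Fatty acids are built in the cytosol from acetyl-CoA, which citrate or acetate supplies, with NADPH as the reductant. The product is elongated and desaturated in the endoplasmic reticulum and joined to glycerol phosphate in steps that end in triglyceride, which is stored in droplets or exported in lipoproteins. In the liver the genes of these enzymes are driven by SREBP-1c after insulin and by ChREBP after glucose, so they follow feeding and fasting.

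Values are log2 expression levels, and a level can be compared between arrays for 1 probe set but not between genes. The medians of the 96 arrays lay between 5.35 and 5.44, and the number of arrays limits the precision. All 7 hepatocyte markers measured lay on average above the median of all values; the log2 of their summed level was 17 to 17.07 over the dose 0 groups and 16.94 to 17.02 over those at 150, lower without overlap in every set but males at day 7. As a check of exposure, Cyp2b10, the classic CAR target gene, was 43.3-fold (female day 2), 45.8-fold (female day 7), 68.9-fold (male day 2) and 66.7-fold (male day 7) higher at 150 than at dose 0. In males at day 2, the array labelled dose 15 number 1 had a Cyp2b10 level of 13.66 against 11.07 to 11.29 on the other 3 of its group, and the array labelled dose 75 number 1 had 10.98 against 13.19 to 13.36, so each goes against its label. Calls and counts in males at day 2 that use them are given with and without both. The array of males at dose 0, day 7, number 4 also stood apart, with the largest residual spread of the 96. In these bulk samples, fewer cells of a type and less RNA per cell cannot be told apart.

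The first question was which of the 32 genes differed between 150 mg/kg-day and dose 0. "Rose", "fell" and "called" are used only of genes with an adjusted p under 0.05 (limma, 2-sided, Benjamini-Hochberg over all 18193 genes). In females at day 2, 2 genes rose and 2 fell, where 5.46% of all genes were called, 3.32% higher and 2.14% lower. In females at day 7, 1 rose and 2 fell, where 2.45% of all genes were called, 1.52% higher and 0.923% lower. At day 2 in males, 4 genes rose and 1 fell, where 4.9% of all genes were called, 2.5% higher and 2.4% lower. At day 7 in males, 2 rose and none fell, where 3.04% of all genes were called, 2.2% higher and 0.835% lower. These are 12.5%, 9.38%, 15.6% and 6.25% of the 32. The list did not shift as a block: its median log2 change was -0.04, -0.01, 0.08 and 0.03 in these 4 comparisons, beside -0.03, -0.02, -0.02 and 0.00 over all genes. The sizes were larger than those of most genes, with a median absolute log2 change of 0.19, 0.20, 0.23 and 0.22 for the list and of 0.10, 0.09, 0.10 and 0.10 for all genes. The members also varied more than most genes between arrays of a group: their median pooled SD was 0.23 against 0.15 for all genes, and 19 of the 32 lay above percentile 80 of that spread. Its part in the sizes was not tested. The elongase gene Elovl1 was the single member called in all 4 comparisons, and the genes that commit acetyl-CoA to fatty acid were called in none.

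**Figure D1:**
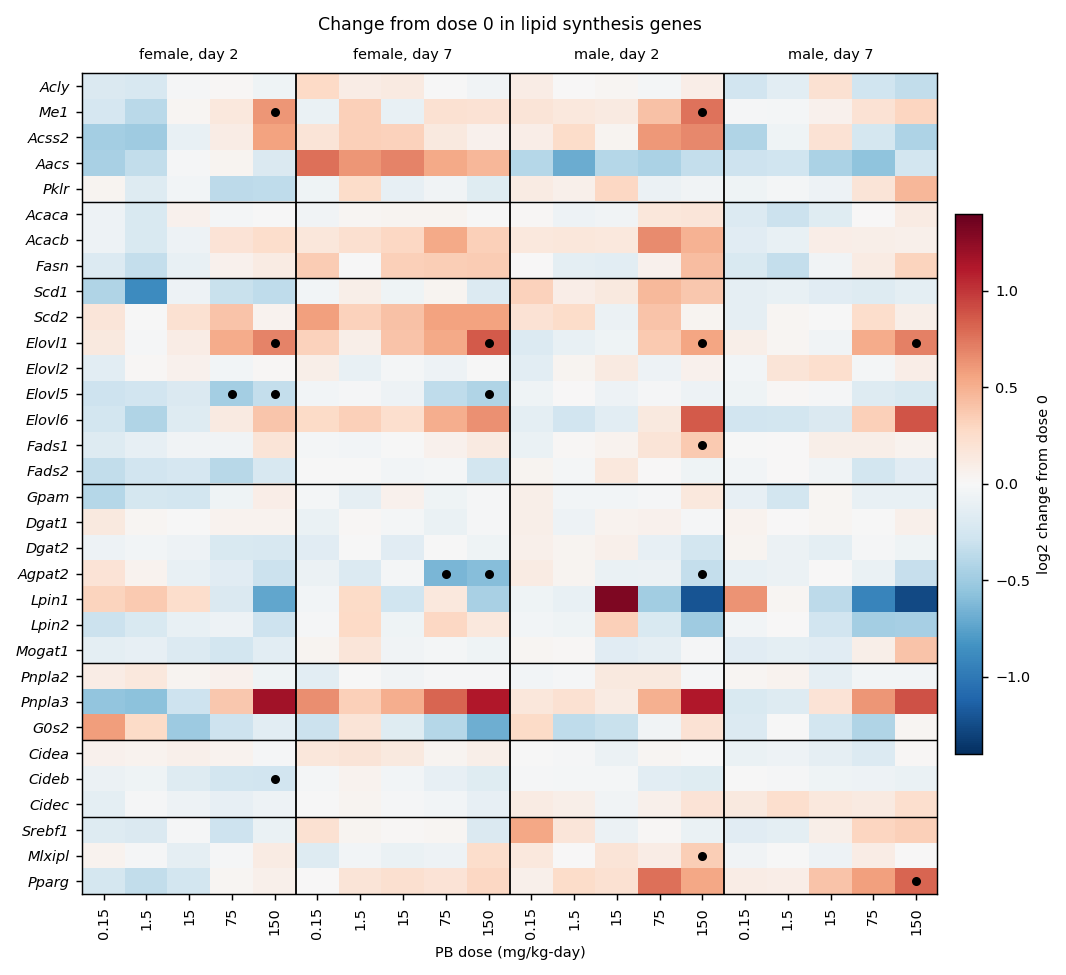
Log2 change of each of the 32 genes (rows, ordered by role) at each dose, set against the dose 0 arrays of that sex and day (columns, 4 arrays against 4); colour gives the log2 change and a mark stands on changes with an adjusted p under 0.05 in limma. Marks stand in the columns of 75 and 150 mg/kg-day alone, and Elovl1 carries one at 150 in each of the 4 sets.

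Among the genes that supply acetyl-CoA, NADPH and pyruvate, Me1 rose at day 2 in both sexes and the other 4 were not called at 150. Me1 encodes cytosolic malic enzyme, a source of NADPH. In females at day 2 its levels were 10.82, 10.93, 10.41 and 10.72 at dose 0 and 11.45, 11.47, 11.05 and 11.39 at 150, so all 4 treated arrays lay above all 4 controls, though the highest control and the lowest treated array were close. The log2 change was 0.62 ± 0.20 (SE; 1.54-fold; limma adjusted p = 0.0497). This call was lost when any one of control arrays 1, 3 and 4 or treated arrays 1, 2 and 4 was left out (adjusted p = 0.0689 to 0.206).

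Me1 in males at day 2 was at 10.88, 11.33, 10.86 and 11.01 at dose 0 and 11.64, 11.85, 11.77 and 11.85 at 150. The groups did not overlap, and the change was 0.76 ± 0.20 (1.69-fold; limma adjusted p = 0.0117, and 0.0512 without control array 1). The other Me1 probe set gave 0.81 in females and 0.80 in males. At day 7 the groups overlapped in both sexes, with a change of 0.20 in females (limma adjusted p = 0.739) and 0.30 in males (0.527). The difference between the days was -0.42 in females (95% interval -0.98 to 0.15) and -0.46 in males (-1.02 to 0.10), which the test did not call.

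Acss2 encodes the cytosolic enzyme that makes acetyl-CoA from acetate. Its levels in males at day 2 were 10.64, 11.31, 10.64 and 11.01 at dose 0 and 11.42, 11.78, 11.42 and 11.67 at 150, without overlap, whereas at day 7 they were 11.56, 11.08, 11.04 and 10.97 at dose 0 and 11.04, 10.80, 10.41 and 10.66 at 150, with the treated arrays at the lower end. The changes were 0.67 (limma adjusted p = 0.108) at day 2 and -0.43 (0.419) at day 7. The male response at day 7 minus that at day 2 was -1.10 ± 0.35 (95% interval -1.80 to -0.41), with an unadjusted p of 0.0022 and a limma adjusted p of 0.201.

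Acly, whose product ATP citrate lyase releases acetyl-CoA from citrate, changed by -0.06 in females and 0.09 in males at day 2 and by -0.04 and -0.35 at day 7, none of them called. Pklr, the pyruvate kinase of liver, had changes of -0.35, -0.17, -0.05 and 0.46 in females at day 2, females at day 7, males at day 2 and males at day 7. Only the male day 7 arrays of Pklr were free of overlap, and that change had a limma adjusted p of 0.194. Aacs, which activates acetoacetate, varied more within groups than any other member (pooled SD 0.66), so its changes of -0.20, 0.46, -0.33 and -0.25 lie within the spread of the arrays.

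The 3 genes of fatty acid synthesis proper were not called at 150 in either sex or on either day. Fasn, fatty acid synthase, had levels of 10.62, 10.35, 10.13 and 10.86 at dose 0 and 10.33, 10.68, 10.82 and 10.57 at 150 in females at day 2, and 10.62, 10.51, 10.43 and 10.36 against 11.43, 10.95, 10.53 and 10.75 in males at day 2. Both pairs of groups overlapped. Its changes were 0.11, 0.35, 0.43 and 0.31 in the order used for Pklr, with limma adjusted p between 0.385 and 0.893. Acaca, the acetyl-CoA carboxylase that makes malonyl-CoA for synthesis, changed by 0.00, 0.00, 0.17 and 0.11 in that order. Acacb, the carboxylase whose malonyl-CoA restrains mitochondrial fat oxidation, changed by 0.25, 0.33, 0.49 and 0.07; its male day 2 arrays did not overlap, and its limma adjusted p there was 0.235.

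Averaging the female and male differences narrows these intervals. At day 2 the averaged change was 0.27 for Fasn (95% interval -0.07 to 0.61), 0.09 for Acaca (-0.12 to 0.29), 0.37 for Acacb (0.06 to 0.68), 0.01 for Acly (-0.24 to 0.27) and 0.01 for Scd1 (-0.35 to 0.38). At day 7 it was 0.33 for Fasn (-0.01 to 0.67), 0.05 for Acaca (-0.15 to 0.26), 0.20 for Acacb (-0.11 to 0.51), -0.20 for Acly (-0.46 to 0.06) and -0.17 for Scd1 (-0.53 to 0.20). None of these was called, with limma adjusted p from 0.122 upward. The intervals bound a change in either direction and do not show that these genes stayed at the same level.

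Elongation and desaturation held the most calls, but it is also the largest role, with 8 of the 32 genes. Of these 8, 1 rose and 1 fell in females on each day. In males 2 rose at day 2 and 1 rose at day 7. Elovl1 was among those that rose in each sex on each day. Whether the role held more calls than its size alone would give was not tested. Elovl1 (probe set 1456530_x_at) lengthens saturated and monounsaturated fatty acids to very long chains, and Elovl5 (1415840_at) lengthens polyunsaturated ones. In females they moved in opposite directions. The sequences just before their annotated transcription starts are shown for comparison, with that of Agpat2, the gene of triglyceride assembly called below. Each is the 250 bases before a start, 5′ to 3′ on the strand of the gene, from RefSeq on GRCm38.p6; capitals mark matches to CACGTG (the E-box read by ChREBP and other factors), CCAAT (the box of NF-Y), TCACNCC or TCGCNCC (short forms of sterol regulatory elements) and AGGTCA (a core of nuclear receptor sites), each searched on both strands.
Elovl1, chr4:118427843-118428092, plus strand: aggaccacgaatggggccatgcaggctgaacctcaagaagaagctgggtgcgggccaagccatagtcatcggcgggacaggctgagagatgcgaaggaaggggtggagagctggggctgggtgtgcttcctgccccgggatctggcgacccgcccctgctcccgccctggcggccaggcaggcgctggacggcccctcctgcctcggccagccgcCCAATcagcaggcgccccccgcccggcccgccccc
Elovl1, chr4:118429451-118429700, plus strand: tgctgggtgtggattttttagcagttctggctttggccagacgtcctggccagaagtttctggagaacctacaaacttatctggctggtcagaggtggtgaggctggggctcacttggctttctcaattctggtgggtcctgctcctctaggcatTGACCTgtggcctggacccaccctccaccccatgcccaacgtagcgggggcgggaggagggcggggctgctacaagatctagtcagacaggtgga
Elovl5, chr9:77917115-77917364, plus strand: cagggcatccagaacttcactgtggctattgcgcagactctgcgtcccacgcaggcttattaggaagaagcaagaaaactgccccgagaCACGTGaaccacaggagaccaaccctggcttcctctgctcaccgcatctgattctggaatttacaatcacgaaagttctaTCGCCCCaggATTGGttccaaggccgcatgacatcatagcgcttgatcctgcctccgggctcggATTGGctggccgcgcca
Agpat2, chr2:26604418-26604667, minus strand: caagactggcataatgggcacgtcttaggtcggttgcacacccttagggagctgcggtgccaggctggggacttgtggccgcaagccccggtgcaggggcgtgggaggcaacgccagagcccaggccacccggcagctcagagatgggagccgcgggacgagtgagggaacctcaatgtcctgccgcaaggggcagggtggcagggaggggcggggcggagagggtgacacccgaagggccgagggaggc

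In these letters the first Elovl1 start had 1 CCAAT box, the other had 1 AGGTCA on the opposite strand, and Elovl5 had an E-box, a TCGCNCC match and CCAAT boxes on the opposite strand. The Agpat2 window held no match. RefSeq promoters were found for 26 of the 32 genes, 39 in all. An E-box stood in 7.69% of these and in 6.02% of all 32851 promoters, CCAAT in 38.5% and 33.8%, TCACNCC in 17.9% and 13.4%, TCGCNCC in 15.4% and 9.77%, and AGGTCA in 20.5% and 14%. A match is a run of letters and does not show binding.

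Elovl1 in females at day 2 had levels of 10.56, 10.11, 10.09 and 10.60 at dose 0 and 11.06, 11.14, 11.03 and 10.89 at 150. At day 7 they were 9.88, 9.97, 9.96 and 10.33 at dose 0 and 11.04, 10.94, 10.75 and 10.85 at 150. On both days all 4 treated arrays lay above all 4 controls. The changes were 0.69 ± 0.15 (SE; 1.61-fold; limma adjusted p = 0.00118) and 0.86 ± 0.15 (1.81-fold; 9e-05), and both calls held when any 1 array of the groups was left out.

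Male arrays of day 2 read Elovl1 at 10.66, 10.42, 10.56 and 10.63 at dose 0 and 11.19, 11.19, 10.83 and 11.31 at 150. At day 7 it read 10.42, 10.49, 10.50 and 9.75 at dose 0 and 10.97, 10.68, 11.20 and 11.11 at 150. Again no treated array reached down to a control, and control array 4 of day 7 was the lowest of all 96. The changes were 0.56 ± 0.15 (1.47-fold; limma adjusted p = 0.0167) and 0.70 ± 0.15 (1.63-fold; 0.00189). The day 2 call was lost without control array 2 or treated array 1, 2 or 4 (adjusted p = 0.051 to 0.0744), and the day 7 call without control array 4 (change 0.52, adjusted p = 0.0576).

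All 4 probe sets of Elovl1 changed in the same direction in these comparisons. The probe set used carries the suffix of sets whose probes may also match other sequences, and 1425676_a_at, which does not, gave changes of 0.69, 0.91, 0.58 and 0.71 in females at day 2, females at day 7, males at day 2 and males at day 7. At 75 mg/kg-day the changes of Elovl1 were 0.52, 0.53, 0.36 and 0.51 in that order, with limma adjusted p of 0.113, 0.0711, 0.366 and 0.167. On the male day 2 array labelled dose 15 number 1, Elovl1 was at 11.23, against 10.20 to 10.36 on the other 3 arrays of that group.

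**Figure D2:**
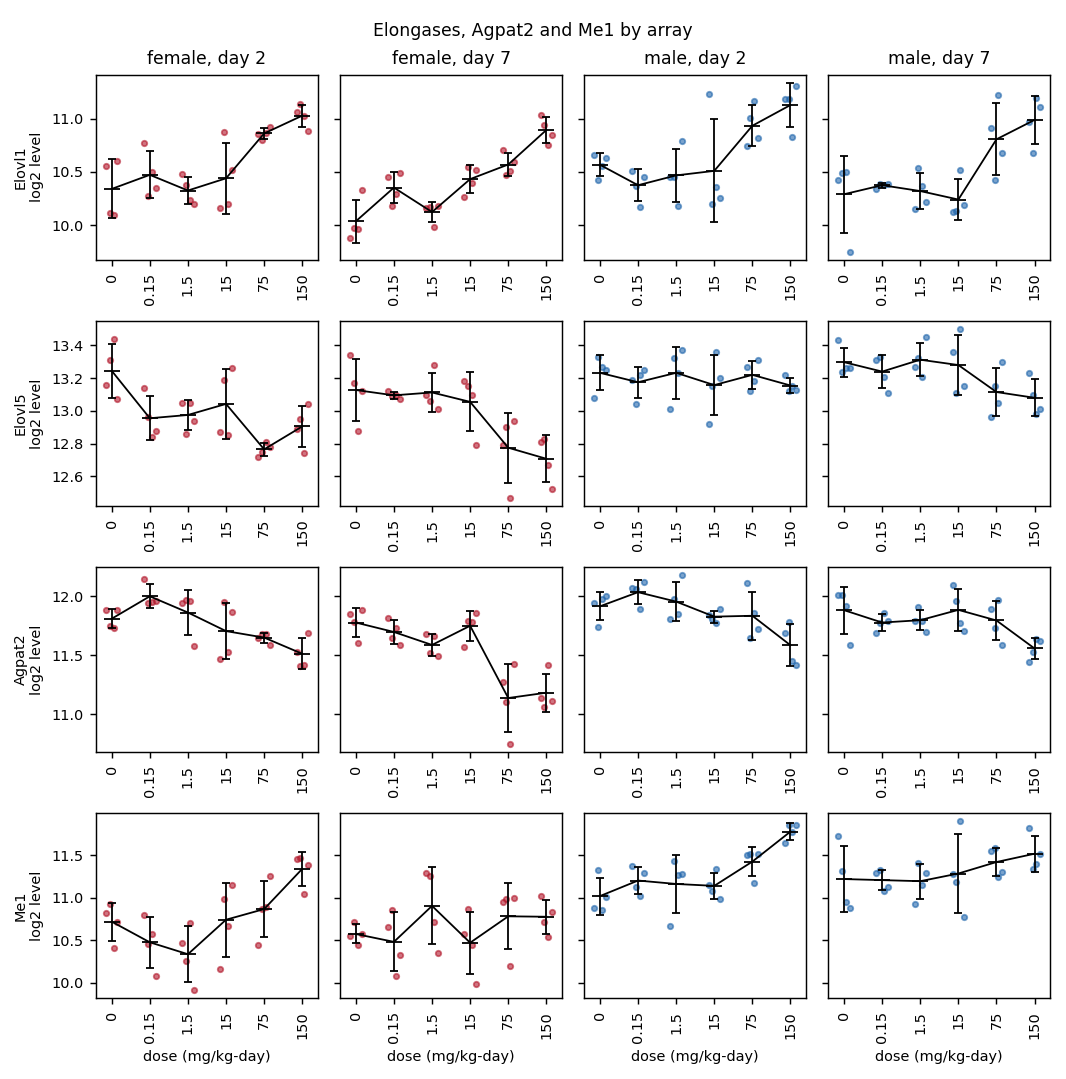
Log2 levels of Elovl1, Elovl5, Agpat2 and Me1 (rows) on each array (points) by dose in mg/kg-day (horizontal axis, evenly spaced, not to scale) for each sex and day (columns), with the mean and SD of the 4 arrays. Elovl1 is higher at 150 in all 4 columns, and Elovl5 and Agpat2 are lowest in females at 75 and 150.

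Elovl5 fell in females. At day 2 its levels were 13.16, 13.31, 13.44 and 13.07 at dose 0 and 12.89, 12.95, 12.74 and 13.04 at 150; at day 7 they were 13.34, 13.17, 12.88 and 13.12 at dose 0 and 12.81, 12.83, 12.67 and 12.52 at 150. Every treated array lay below every control, by a narrow gap on both days. The changes were -0.34 ± 0.10 (1.26-fold lower; limma adjusted p = 0.0202) and -0.42 ± 0.10 (1.34-fold lower; 0.00452), and the other probe set gave -0.33 and -0.41. The day 2 call was lost without control array 2 or 3 or treated array 1 or 3 (adjusted p = 0.0577 to 0.139), and the day 7 call without control array 1 (0.0644).

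In males Elovl5 was at 13.08, 13.33, 13.27 and 13.25 at dose 0 and at 13.22, 13.12, 13.15 and 13.13 at 150 on day 2, and at 13.43, 13.24, 13.26 and 13.26 against 13.23, 13.10, 12.98 and 13.01 on day 7. The groups overlapped at day 2 and not at day 7. The changes were -0.07 (limma adjusted p = 0.805) and -0.22 (0.249). The male response minus the female one was 0.27 at day 2 (95% interval -0.01 to 0.54; unadjusted p = 0.0558) and 0.21 at day 7 (-0.07 to 0.48), so a difference between the sexes was not called.

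Fads1, the delta-5 desaturase of polyunsaturated fatty acids, rose in males at day 2. Its levels were 11.80, 11.93, 11.72 and 11.78 at dose 0 and 12.14, 12.14, 12.24 and 12.21 at 150, clearly apart. The change was 0.37 ± 0.09 (1.29-fold; limma adjusted p = 0.007) and held when any 1 array was left out. The dimmer of its probe sets gave 0.24, and the mean of both probe sets was not called (0.30; adjusted p = 0.263). The other comparisons gave 0.18, 0.12 and 0.04 in females at day 2, females at day 7 and males at day 7.

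Elovl6, which lengthens palmitate to stearate, was called at 150 in neither sex alone but rose on the average of both. In males its levels were 9.45, 9.71, 9.38 and 9.32 at dose 0 and 10.90, 10.21, 9.91 and 10.27 at 150 on day 2, and 9.14, 9.80, 9.14 and 8.90 against a range of 9.86 to 10.69 on day 7. The male groups did not overlap on either day, whereas the female groups did on both. The male changes were 0.86 (limma adjusted p = 0.0762) and 0.88 (0.0859), the female ones 0.39 and 0.64.

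The other members of this role were not called at 150. Scd1, the main stearoyl-CoA desaturase of liver, changed by -0.36, -0.19, 0.38 and -0.14 in females at day 2, females at day 7, males at day 2 and males at day 7. Its lowest level of all arrays, 11.89, was 1 female array of day 2 at 150, whose other 3 arrays were at 13.00 to 13.81. Scd2, an isoform of other tissues, changed by 0.05, 0.56, 0.03 and 0.08, with a limma adjusted p of 0.131 in females at day 7. Elovl2 and Fads2 act on polyunsaturated fatty acids. Elovl2 changed by 0.01, 0.00, 0.07 and 0.09 in that order, and Fads2 by -0.22, -0.26, -0.06 and -0.16.

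In triglyceride assembly, the 1 gene of 7 called at 150 was Agpat2 (probe set 1428821_at), which encodes the acyltransferase that makes phosphatidic acid. In females at day 7 its levels were 11.85, 11.78, 11.60 and 11.88 at dose 0, 11.27, 11.10, 10.75 and 11.43 at 75, and 11.14, 11.06, 11.42 and 11.11 at 150. All 8 arrays at 75 and 150 lay below all 4 controls. The change at 150 was -0.59 ± 0.11 (1.51-fold lower; limma adjusted p = 9e-05) and held without any 1 array.

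Agpat2 also fell in males at day 2, from 11.94, 11.74, 11.98 and 12.00 to 11.69, 11.78, 11.45 and 11.42, with 1 treated array above the lowest control. The change was -0.33 ± 0.11 (1.26-fold lower; limma adjusted p = 0.0495), and the call was lost without control array 1, 3 or 4 or treated array 1, 3 or 4 (adjusted p = 0.0548 to 0.189). In females at day 2 the change was -0.30 (0.0862), with 11.73 to 11.88 at dose 0 and 11.41 to 11.69 at 150, apart. Males at day 7 had a change of -0.32 (0.0776), with overlap through control array 4 at 11.59. The female response at day 7 minus that at day 2 was -0.29 (95% interval -0.59 to 0.00), and the male minus the female response at day 7 was 0.27 (-0.03 to 0.57); neither was called.

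Lpin1 and Lpin2 encode lipins, which remove phosphate from phosphatidic acid to give diacylglycerol. Lpin1 in males at day 7 had 9.92, 10.10, 9.03 and 10.58 at dose 0 and 9.04, 8.17, 8.64 and 8.74 at 150, and at day 2 it had 8.99, 9.88, 10.28 and 8.69 at dose 0 and 8.51, 8.06, 8.44 and 8.0 at 150. The treated arrays were the lower ones on both days, with a single crossing at day 7. The changes of -1.26 ± 0.43 and -1.21 ± 0.43 were among the largest of the list but were not called (limma adjusted p = 0.0994 and 0.0962), since Lpin1 also had one of the widest spreads within groups (pooled SD 0.63). In females they were -0.72 and -0.45.

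Lpin2 in males was at 10.83, 10.36, 10.21 and 10.85 at dose 0 and 10.23, 9.99, 10.09 and 10.06 at 150 on day 7, a change of -0.47 (limma adjusted p = 0.108), with a single crossing. At day 2 it was at 9.79 to 10.36 and 9.45 to 9.75, apart, with a change of -0.50 (0.0625). In females the changes of Lpin2 were -0.29 and 0.14. The male minus female response at day 7 was -0.61 (95% interval -1.08 to -0.15; unadjusted p = 0.0104), which over all genes gave an adjusted p of 0.983.

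Dgat2, the acyltransferase of the last step, changed by -0.22, -0.06, -0.26 and -0.06 in females at day 2, females at day 7, males at day 2 and males at day 7. Its male day 2 levels of 11.64 to 11.81 at 150 lay below those of 11.94 to 12.01 at dose 0. None of these changes was called. On the average of the sexes, Dgat1, which catalyses the same step, changed by 0.02 at day 2 and 0.03 at day 7. Gpam, of the first step, had 0.12 and -0.06 there. Mogat1, an acyltransferase that adipose tissue and fatty liver express, was dim at a mean level of 4.86, under the median of all values of 5.39; it read 4.85 to 5.19 on 3 of the male day 7 arrays at 150 and 6.29 on the other.

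Among the 3 regulators of lipolysis none was called at 150 in a single sex and day. Pnpla3, a droplet protein under the control of SREBP-1c and ChREBP, had the largest rises on average. Its levels in females at day 2 were 6.81, 6.38, 6.07 and 7.98 at dose 0 and 7.56, 8.56, 8.25 and 7.58 at 150, and in males at day 2 they were 5.95, 6.38, 6.29 and 6.60 against 8.02, 7.6, 7.8 and 6.30. In each sex 1 array crossed into the other group. The changes were 1.18 ± 0.43 (limma adjusted p = 0.0999) and 1.13 ± 0.43 (0.129), and at day 7 they were 1.13 in females (0.172) and 0.90 in males (0.298). Pnpla2, adipose triglyceride lipase, had averaged changes of -0.04 at day 2 and -0.02 at day 7, and G0s2, its inhibitor, had 0.02 and -0.33 with a pooled SD of 0.59.

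**Figure D3:**
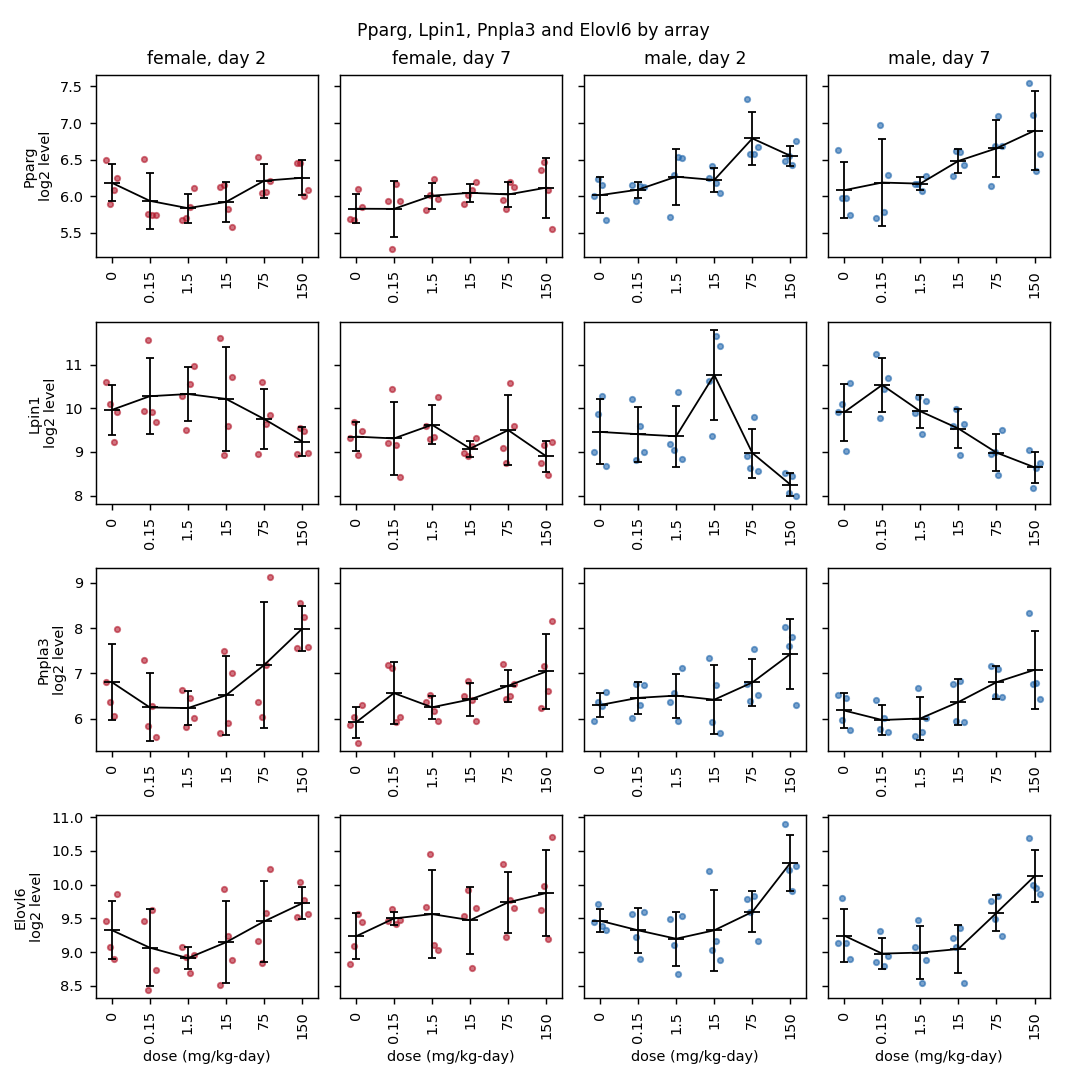
Log2 levels of the more variable members (rows) on each array (points) by dose in mg/kg-day (horizontal axis, evenly spaced, not to scale) for each sex and day (columns), with the mean and SD of the 4 arrays. Pnpla3 arrays at 150 lie mostly above those at dose 0, and Lpin1 arrays in males at 150 lie between 8.0 and 9.04.

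Of the CIDE proteins, which join lipid droplets, Cideb is the one of normal liver and helps to load lipoproteins. It fell in females at day 2, from 11.99, 12.10, 12.01 and 11.87 at dose 0 to 11.77, 11.59, 11.77 and 11.75 at 150, with no overlap. The change was -0.27 ± 0.07 (1.21-fold lower; limma adjusted p = 0.00643), and the call was lost without control array 2 (0.0511) or treated array 2 (0.0703). Cideb had the smallest spread of the list (pooled SD 0.09), and its other changes were -0.17, -0.16 and -0.10 in females at day 7, males at day 2 and males at day 7. Its probe set carries the suffix of sets that may match transcripts of more than 1 gene. Cidea and Cidec, the proteins of adipose tissue and fatty liver, were dim, with mean levels of 4.33 and 3.77, and nothing can be read from their lack of change.

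Of the transcription factors, Srebf1, the gene of SREBP-1, changed by -0.10, -0.20, -0.10 and 0.34 in females at day 2, females at day 7, males at day 2 and males at day 7, none called. Mlxipl, the gene of ChREBP, rose in males at day 2, from 10.99, 11.08, 10.99 and 10.99 at dose 0 to 11.36, 11.49, 11.13 and 11.43 at 150, without overlap. The change was 0.34 ± 0.10 (1.27-fold; limma adjusted p = 0.0225), and the call was lost without control array 1, 3 or 4 or treated array 1, 2 or 4 (0.0542 to 0.112). The male change at day 7 was 0.01, and the day 7 minus day 2 response was -0.33 (95% interval -0.61 to -0.06; adjusted p = 0.408).

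Pparg, the nuclear receptor that drives fat storage in adipose tissue and in fatty liver, rose in males at day 7. Its levels were 6.63, 5.98, 5.98 and 5.74 at dose 0 and 7.55, 7.11, 6.35 and 6.58 at 150, so the treated arrays were higher with some overlap. The change was 0.81 ± 0.21 (1.76-fold; limma adjusted p = 0.0141), and the call was lost without control array 4 (change 0.70, adjusted p = 0.087), treated array 1 (0.169) or treated array 2 (0.0746). Male levels at day 2 were 5.67 to 6.24 at dose 0 and 6.43 to 6.75 at 150, a change of 0.54 (0.143), and in females the changes were 0.07 and 0.29. The male minus female response at day 7 was 0.53 (95% interval -0.07 to 1.12), not called.

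Pparg is also expressed by macrophages and adipocytes. In males at day 7, 2 of 10 Kupffer cell markers rose, Cd5l (2.15-fold) and Adgre1 (1.7-fold), and the log2 of the summed level of the 10 was 12.64 to 13.36 at dose 0 and 13.50 to 14.05 at 150. In the same comparison 3 of 9 stellate cell markers (Lrat, Reln and Hand2) and 1 of 9 endothelial markers (Stab2) fell, and 1 of 7 lymphocyte markers rose, Ptprc, which all leukocytes carry. The summed level was 12.23 to 12.56 at dose 0 and 12.01 to 12.52 at 150 for the stellate list and 8.53 to 8.77 and 8.94 to 9.51 for the lymphocyte list, of which 4 were dim. In that comparison 2.2% of all genes were called higher and 0.835% lower. The part of the cells that carry these markers in the Pparg result was not tested. Of the 10 adipocyte markers measured, none was called in that comparison, the summed level was 14.22 to 14.29 at dose 0 and 14.16 to 14.24 at 150, and 5 were under the median of all values, among them Adipoq and Lep.

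With the spread taken from the arrays of each contrast alone and not from all 96, several calls at 150 were lost: Elovl5 (limma adjusted p = 0.125) and Cideb (0.123) in females at day 2, Elovl5 in females at day 7 (0.108), Mlxipl (0.0787) and Agpat2 (0.142) in males at day 2, and Elovl1 (0.116) and Pparg (0.211) in males at day 7. The values and their directions are the same in that fit.

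The next question was the dose at which the genes moved. At 75 mg/kg-day, Elovl5 fell in females at day 2 (1 of 32, where 0.451% of all genes were called, 0.143% lower) and Agpat2 in females at day 7 (1 of 32, where 0.764% were called, 0.324% lower). The group means of Elovl5 in females at day 2 were 13.24 at dose 0, 12.96 at 0.15, 12.98 at 1.5, 13.04 at 15, 12.77 at 75 and 12.91 at 150, so its controls were the highest group and the means at the low doses lay between. At 75 it was at 12.72, 12.75, 12.81 and 12.78, below all controls, a change of -0.48 ± 0.10 (1.39-fold lower; limma adjusted p = 0.00339). Agpat2 changed by -0.64 ± 0.11 (1.56-fold lower; limma adjusted p = 1e-04). With the spread taken from the groups of each contrast alone, neither was called (0.103 and 0.158). In males limma called none at 75, where 0.44% of all genes were called at day 2 (0.363% higher and 0.077% lower) and 0.247% at day 7. At an unadjusted p under 0.05 there were 7 members at day 2 (21.9%, against 10.6% of all genes) and 5 at day 7 (15.6%, against 8.64%). Without the 2 arrays that go against their labels, 4 members were at an unadjusted p under 0.05 at day 2 (10.8% of all genes), and the change of Elovl1 there was 0.43 (limma adjusted p = 0.202). The doses share their controls, so their changes are not independent.

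At 15 mg/kg-day and below limma called no member in either sex on either day. The members with an unadjusted p under 0.05 numbered 3, 4 and 3 in females at day 2 (at 15, 1.5 and 0.15), 2, 0 and 2 in females at day 7, 2, 0 and 1 in males at day 2, and 1, 3 and 0 in males at day 7. Of all genes, between 3.52% and 7.89% were at an unadjusted p under 0.05 in these 12 comparisons. Over all genes the called share was 0.022% in females at 15 on each day, 0.0385% and 0.011% in males at 15 at day 2 and day 7, 0.0055% in males at 0.15 at day 7, and 0% in the other 7 comparisons. The largest of these changes was that of Lpin1 in males at day 2 and 15 mg/kg-day, whose arrays read 10.63, 9.36, 11.65 and 11.42 (change 1.30 ± 0.43; limma adjusted p = 0.663); the first of them is the array that goes against its label, and the change was 1.35 (adjusted p = 0.73) without it. Without the 2 arrays that go against their labels, no member was called at 15 or 75 in males at day 2 either (0.0275% and 0.715% of all genes called). At 15, 3 members were then at an unadjusted p under 0.05 (5.88% of all genes).

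A trend test uses all 24 arrays of a sex and day. It gives the slope over the ranks of the 6 doses, written here as the log2 change from the lowest to the highest rank. A change at the top doses alone can also give a called slope, so a call does not show a graded rise or fall. In females at day 2, 4 members rose and 3 fell (8.73% of all genes called, 4.54% higher and 4.19% lower), and at day 7, 1 rose and 2 fell (4.35%, 2.36% higher and 1.99% lower). In males 5 rose and 2 fell at day 2 (6.04%, 3.13% higher and 2.91% lower), and 3 rose and 2 fell at day 7 (4.46%, 3.07% higher and 1.39% lower). Without the 2 arrays that go against their labels, 5 rose and 2 fell in males at day 2 as well (6.52% of all genes called). Mlxipl and Cideb were then among them in place of Acss2 and Dgat2.

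The slope of Elovl1 was called upward in all 4 sets, and none of the alternatives tried lost these calls. It was 0.68 and 0.75 in females at day 2 and day 7, and 0.64 and 0.67 in males. Its group means, from dose 0 up to 150, were 10.34, 10.47, 10.33, 10.44, 10.86 and 11.03 in females at day 2. Females at day 7 had 10.04, 10.35, 10.12, 10.43, 10.57 and 10.89. Males at day 2 had 10.57, 10.38, 10.47, 10.51, 10.93 and 11.13, with the arrays that go against their labels included. Males at day 7 had 10.29, 10.37, 10.32, 10.24, 10.81 and 10.99. Agpat2 fell in females by 0.39 at day 2 and by 0.64 at day 7 (limma adjusted p = 2.08e-07) and in males at day 2 by 0.34 (by 0.38 without the 2 arrays). Elovl5 fell in females by 0.31 and 0.45. Me1 rose at day 2, by 0.67 in females and 0.64 in males (0.62 without the 2 arrays, when Elovl1 rose by 0.64). The Me1 means in females at day 2 were 10.72 at dose 0, 10.48 at 0.15, 10.34 at 1.5 and 11.34 at 150. Its means at 0.15 and 1.5, below that of the controls, add to this slope. Cideb fell in females at day 2 by 0.29.

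The trend also called genes that the comparison at 150 had not. Pnpla3 (1.28, limma adjusted p = 0.0128) and Acss2 (0.70, limma adjusted p = 0.0184) rose in females at day 2. The Pnpla3 means there were 6.81 at dose 0, 6.25 at 0.15, 6.24 at 1.5, 6.52 at 15, 7.18 at 75 and 7.99 at 150. Those of Acss2 were 10.89 at dose 0, 10.42 at 0.15, 10.4 at 1.5 and 10.79 at 15. For both genes, means at low doses below that of the controls add to the slope. The Pnpla3 call was lost without control array 3 or treated array 2 at 150 (0.0609 and 0.0551) and with the spread taken from these groups alone (0.1), and that of Acss2 without control array 3 or treated array 2 or 4 at 150 (0.0568 to 0.0763). Pparg rose in males at day 2 (0.68; 0.00876), also without the arrays that go against their labels (0.60; 0.0255). Acss2 rose (0.67; 0.0353) and Dgat2 fell (-0.26; 0.0326) there, but without those 2 arrays both calls were lost (0.64; 0.0586 and -0.25; 0.0511). Leaving out single arrays also lost them: for Acss2 arrays 2 and 3 at 0.15, controls 1 and 3, arrays 2 and 4 at 150 and array 1 at 75 (0.056 to 0.106), and for Dgat2 controls 1, 3 and 4, arrays 1 and 3 at 150 and array 1 at 75 (0.0544 to 0.0882). With the mean of all probe sets neither was called (Acss2 0.0704, Dgat2 0.337), nor was Acss2 with the spread of these groups alone (0.0615).

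Fads1, called at 150 in males at day 2, had a trend there of 0.39, and of 0.38 without the 2 arrays that go against their labels. With the mean of its probe sets it was 0.25 and not called (limma adjusted p = 0.254).

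In males at day 7 the largest trend was the fall of Lpin1. Its group means were 9.91 at dose 0, 10.53 at 0.15, 9.93 at 1.5, 9.54 at 15, 8.98 at 75 and 8.65 at 150. The slope was -1.62 ± 0.37 (limma adjusted p = 0.00229), and -1.55 on its other probe set. Lpin2 fell too, by 0.56 (0.00689), and its 4 probe sets gave -0.56, -0.70, -0.76 and -0.64. Pparg rose by 0.83 (0.00126) and Elovl6 by 0.89 (0.0195), the latter not without control array 4 (0.0687) or array 1 at 150 (0.101), nor with the mean of its probe sets (0.52; 0.0928).

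Lpin1 is known to rise on fasting. Of 13 genes of the fasting response, none rose at 150, and 1, 3, 3 and 1 fell in females at day 2, females at day 7, males at day 2 and males at day 7. In the same order 3.32%, 1.52%, 2.5% and 2.2% of all genes were called higher, and 2.14%, 0.923%, 2.4% and 0.835% lower. The median changes over all genes are given with the first counts at 150. Those of the 13 fasting genes were -0.34, -0.29, -0.29 and -0.49. In males at day 7 the summed level of these genes was 15.10 to 15.52 at dose 0 and 14.89 to 15.11 at 150, and Angptl4, a lipoprotein lipase inhibitor that fasting induces, fell 2.81-fold (limma adjusted p = 0.00257). Of 14 clock genes 1 was called over the 4 comparisons at 150, Clock, which fell in females at day 7. Clock and Arntl fell there at 75 too, where Agpat2 fell, and on the average of the sexes at day 7 Dbp rose while Arntl and Clock fell. The part of feeding state or hour of sampling in the results was not tested.

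Averaging the female and male responses, which use the arrays already described, puts 16 arrays behind each value. At day 2, 7 members rose and 6 fell (12.1% of all genes called, 5.36% higher and 6.72% lower), and at day 7, 4 rose and 2 fell (8.66%, 5.17% higher and 3.49% lower). On both days Elovl1 (0.62 and 0.78), Elovl6 (0.62 and 0.76) and Pnpla3 (1.15 and 1.01) rose, and Agpat2 (-0.32 and -0.46) and Elovl5 (-0.20 and -0.32) fell. Elovl1 at day 7 had the smallest p of the list (limma adjusted p = 8.7e-08; 1.72-fold).

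Called at day 2 were also Me1 (0.69; limma adjusted p = 0.000183), Acss2 (0.62; 0.00905), Fads1 (0.27; 0.00157), Mlxipl (0.23; 0.0152), Cideb (-0.22; 0.000666), Dgat2 (-0.24; 0.00762), Lpin1 (-0.97; 0.0235) and Lpin2 (-0.40; 0.0132). At day 7 these 8 were not called, and Pparg was (0.55, limma adjusted p = 0.00937). The Pparg call was lost with the spread taken from the groups of that contrast alone (limma adjusted p = 0.0772). With the mean of all probe sets, Lpin2 at day 2 had an adjusted p of 0.469, Dgat2 0.135, Fads1 0.0796, Elovl5 0.0602, and Elovl6 at day 7 0.0618.

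Single arrays decided several of these averaged calls. At day 2, Elovl5 was lost without any of 9 arrays: female controls 2 and 3, female treated arrays 1 and 3, male controls 2, 3 and 4, and male treated arrays 2 and 4 (limma adjusted p = 0.0519 to 0.105). Elovl6 was lost there without female control 2 or 3, female treated array 2, male control 3 or 4, or male treated array 1 (0.0554 to 0.106), and Lpin1 without female control 1, female treated array 1, or male control 2 or 3 (0.0513 to 0.0797). At day 7, Pnpla3 was lost without female control 3, female treated array 4, male control 4 or male treated array 1 (0.0514 to 0.1), Elovl6 without female treated array 4 (0.0514), and Pparg without male treated array 1 (0.0563).

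**Figure D4:**
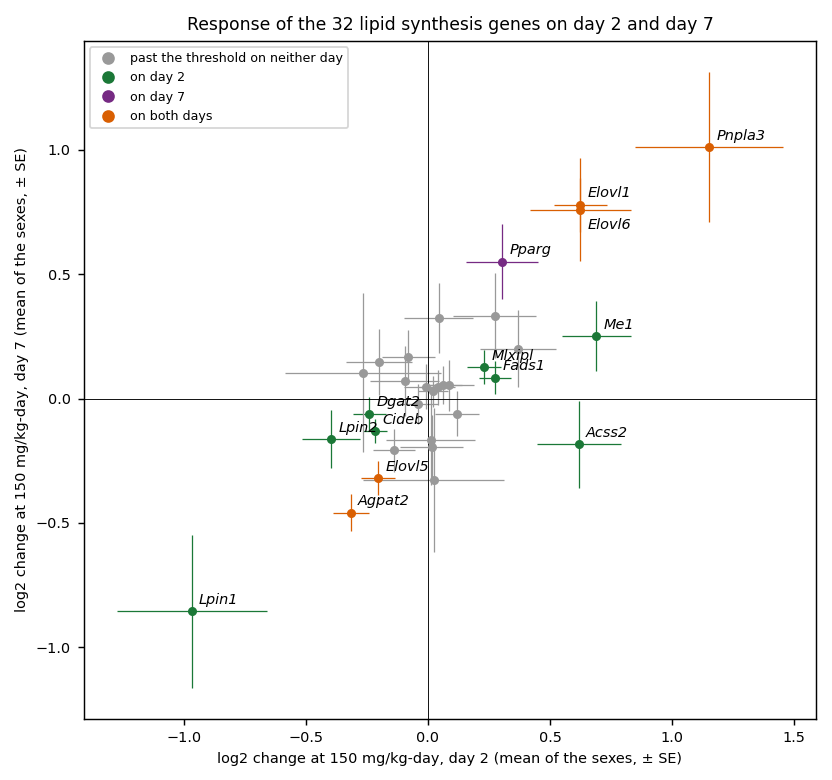
Log2 change at 150 against dose 0, averaged over the sexes, at day 2 (horizontal axis) and at day 7 (vertical axis) for the 32 genes (points), with bars for the SE and the genes called on either day named. Elovl1 lies at 0.62 and 0.78 and Pnpla3 at 1.15 and 1.01, while Acss2 lies at 0.62 and -0.18.

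Whether the days or the sexes differed in their response was tested directly, and no member was called. For day 7 minus day 2, limma called 0.874% of all genes in females and 0.132% in males. At an unadjusted p under 0.05 it had 0 members in females (8.16% of all genes) and 3 in males (9.35%), which were Acss2, Fads1 and Mlxipl. For males minus females it called 0.0055% of all genes at day 2 and 0.0879% at day 7. At an unadjusted p under 0.05 it had 1 member at day 2, Scd1 (3.58% of all genes), and 4 at day 7, Lpin2, Mogat1, Cidec and Pklr (4.63%). A call in 1 sex or on 1 day therefore does not show that the other lacked the response.

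Untreated livers differed between the sexes at day 7, where Me1 and Gpam were higher in males and Dgat2 lower (3 of 32, where 6.71% of all genes were called, 2.08% higher and 4.63% lower). At an unadjusted p under 0.05 there were 8 members (25%, against 19.2% of all genes), so the list as a whole stood near all genes. Dgat2 was at 12.28, 12.48, 12.49 and 12.45 in females and at 12.00, 11.99, 12.05 and 12.12 in males, apart, a difference of -0.39 ± 0.09 (limma adjusted p = 0.00386). Me1 was at 10.45 to 10.72 in females and 10.88 to 11.73 in males, a difference of 0.65 ± 0.20 (0.0324), and Gpam at 11.51 to 11.88 and 11.93 to 12.35, a difference of 0.45 ± 0.13 (0.0173). The Me1 call was lost without female array 1, 3 or 4 or male array 1 or 2 (0.0644 to 0.195), and that of Gpam without female array 1 or 3 or male array 1 (0.0736 to 0.0915). Both were also lost with the spread of these groups alone (0.0687 and 0.0741). In the same comparison 7 of 14 clock genes differed: Arntl, Npas2 and Nfil3 were higher in males, and Dbp, Per3, Nr1d2 and Tef lower. The part of the hour of sampling in the 3 differences was not tested.

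At day 2 limma called none between untreated females and males (2.06% of all genes), with 3 at an unadjusted p under 0.05 (11.8% of all genes), and Dgat2 was closest (12.18 to 12.40 in females, 11.94 to 12.01 in males; difference -0.32; adjusted p = 0.0516). Between the days at dose 0 none was called in females (0.0165% of all genes) or males (0%), with 2 at an unadjusted p under 0.05 in each sex (7.94% of all genes in each).

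Around these 32 genes, 51 other genes of lipid synthesis, storage and transport were measured. At 150, 6 rose and 1 fell in females at day 2, and 2 rose and 4 fell in females at day 7. In males 2 rose and 3 fell at day 2, and 2 rose and 1 fell at day 7. Of all genes, 3.32%, 1.52%, 2.5% and 2.2% were called higher in that order, and 2.14%, 0.923%, 2.4% and 0.835% lower. Whether the 51 held more calls than that was not tested. Plin5, a droplet protein that tethers mitochondria, fell in 3 of the 4: 1.67-fold in females at day 2, 1.97-fold in females at day 7 and 1.81-fold in males at day 2. Pgd, which also yields NADPH through the pentose phosphate pathway, rose at day 2 beside Me1, 1.63-fold in females and 1.45-fold in males. Mttp, which loads triglyceride onto lipoproteins, rose 1.23-fold in females at day 2 and 1.25-fold in males on both days.

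Elovl3, an elongase with male-biased levels in mouse liver, rose in females, 2.9-fold at day 2 (limma adjusted p = 0.0223) and 4.96-fold at day 7 (0.000366). In males it changed by -0.90 at day 2 (0.299) and -0.66 at day 7 (0.53), and its trend at day 2 was -1.17 (0.0454). That trend uses the arrays that go against their labels and is given only with them. Plin2, the coat protein of most liver droplets, fell 1.47-fold in females at day 7 (0.00283). Abhd5, the activator of Pnpla2, rose 1.46-fold in females at day 2 (0.00105). Cd36, a fatty acid receptor and a target of Pparg, rose 1.79-fold in males at day 7 (0.0104). Pparg rose in the same set, and a link between the rises was not tested. Mgll, which cleaves the last fatty acid from glycerol, fell 1.29-fold in males at day 2 (0.0359).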

How the data were processed

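Liver RNA was measured on 96 arrays, 4 in each of 24 groups of sex, day and dose. The authors deposited log2 expression values in a single table; the software, normalization and background correction behind them are not given in the sources used here. The values were used as deposited.

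Of 45101 rows, 64 were control probe sets, 34945 had 1 gene symbol, 932 several and 9160 none. For each of 18193 genes the probe set of highest average level was kept, without regard to group. limma 3.58.1 (R 4.3.3) fitted a group-means model to the 96 arrays together (72 residual degrees of freedom), with p-values 2-sided and adjusted by Benjamini-Hochberg over all genes at a threshold of 0.05. Errors are limma's SE and intervals cover 95%. The fit was tested on simulated data.

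All 32 genes are accounted for. Of each other list, up to 4 called genes per comparison with the smallest adjusted p were taken for naming. Genes and lists were chosen with earlier results of these data known. The alternatives were a fit on the groups of a contrast alone, dim genes left out, quantile normalization, the mean of all probe sets, the replicate number as a block, array weights and leaving out each array. Leaving out the 2 arrays that go against their labels was chosen after seeing the data. Calls of single genes were recomputed in these alternatives for the 32 genes only. Promoters and their bases came from RefSeq on GRCm38.p6.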

Additional observations from a re-analysis of the deposited data

Results flagged for a closer look

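In 28 groups of 4 arrays behind the called genes, 3 had 1 array apart from the other 3 by Dixon's criterion, which chance alone meets in about 5 percent of groups. Cideb in females at day 2 and 150 mg/kg-day was 11.59 on 1 array and 11.75 to 11.77 on the others. Mlxipl in males at day 2 and dose 0 was 11.08 on 1 array and 10.99 on the others. Elovl1 in males at day 7 and dose 0 was 9.75 on array 4 and 10.42 to 10.50 on the others.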

How the results depend on the processing

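The 60 called changes of single genes were recomputed in 1356 alternative settings: 1241 kept their call, 115 lost it and 0 reversed. Calls were lost in 14 of 60 with the groups of the contrast alone, 11 of 60 with the mean of all probe sets, 1 of 60 with the replicate block (Agpat2 in males at day 2, adjusted p = 0.058), 87 of 984 without 1 array and 2 of 12 without the 2 arrays that go against their labels. Counts of called members moved as follows. With the groups of the contrast alone they were 2 at 150 in females at day 2, 0 at 75 in females on each day and 0 at 150 in males at day 7. With dim genes left out they were 2 at 75 in females on each day, 11 in the male day 2 trend and 2 between the sexes at dose 0 and day 2. Quantile normalization and the replicate block each gave 2 at 75 in females at day 2 and 1 between the sexes at day 2. The mean of all probe sets gave 2 at 75 in females at day 7, 4 in the male day 2 trend and 1 between the sexes at day 2. Array weights gave 2 at 75 in females on each day, 4 at 150 in males at day 7, and 1 and 5 between the sexes at day 2 and day 7. The share of all genes called in each setting is not set beside the counts here or in the next paragraph. These counts are therefore not a result about the list. The causes were not tested.

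Leaving out 1 array gave 2 to 4 members at 150 in females at day 2, 2 to 4 in males at day 2 and 1 to 3 in males at day 7. It gave 1 to 2 at 75 in females at day 2 and 1 to 3 at day 7, and 0 to 1 and 1 to 4 between the sexes at day 2 and day 7. Correlations of same-numbered arrays ran from -0.248 to 0.377 (medians -0.002 to 0.034), not every pair above 0. For arrays of other numbers the medians were -0.017 to -0.003. This check cannot show that same-numbered arrays share nothing. The numbers were not used as pairs, and the block result stands only here. With 4 arrays a group, genes of wide spread such as Lpin1 and Pnpla3 were measured least precisely, and Cidea, Cidec and Mogat1 were dim.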
